A study of Mus musculus with 10 samples.

Results

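Cells labelled Fezf2 Ldb2 layer V neurons were examined as single cells in the cortex of 10 mouse embryos. The embryos differed in the number of working copies of Gatad2b, which encodes a subunit of the NuRD complex. The cells were selected on their own measured values: a cell needed at least 1 UMI (unique molecular identifier, a count of 1 captured RNA molecule) of Fezf2 and at least 1 UMI each of 2 or more of Ldb2, Ntf3, Tox and Nrip1. Cells with 3 or more of the layer VI and subplate genes Hs3st4, Nxph3, Tle4, Rprm, Nfe2l3 and Igfbp3 were left out. So were cells with more than 1 UMI of Dlx1, Dlx2 and Dlx5 summed, or with any Hes5. This rule found 4729 cells among 65779 kept cells (7.19%), where kept cells had at least 1000 UMIs, of which at most 10% were mitochondrial. They are called Fezf2 Ldb2 cells below.

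Cortex was dissected from embryos at E16.5 and run as 1 droplet library per embryo with the 10X Genomics 3′ chemistry. Of the embryos, 3 were wild type (WT), 4 carried 1 Gatad2b stop allele (Het, stop/+) and 3 carried 2 (KO, stop/stop). In the stop allele, on a C57BL/6N-Atm1Brd background, a gene-trap cassette sits in the intron after the first coding exon, present in every cell of the animal from the germline, so the effect of the allele in Fezf2 Ldb2 cells cannot be told apart from its effects in other cells. The WT embryos are named WT1 to WT3, the Het embryos Het1 to Het4 and the KO embryos KO1 to KO3, and the embryo was the replicate throughout.

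Layer V holds the large pyramidal neurons whose axons leave the cortex for the brainstem and spinal cord. The transcription factor Fezf2 is a selector of this subcerebral fate and acts with Bcl11b (Ctip2), while Tbr1 and Sox5 are known for the layer VI and subplate programmes and restrain subcerebral fate in corticothalamic neurons. NuRD joins a histone deacetylase (Hdac1 or Hdac2) to a chromatin remodelling ATPase (Chd3, Chd4 or Chd5) and is recruited through Mbd2 or Mbd3, with Gatad2a and Gatad2b as alternative subunits linking the parts.

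The libraries carried 1 of 2 file-name prefixes whose meaning the labels do not give: WT1 to WT3 and Het4 had one, Het1 to Het3 and KO1 to KO3 the other. The KO against WT comparison therefore coincides with the prefix, whereas KO against Het1 to Het3 does not, and both are given. Where the prefix is a covariate, its effect is estimated from Het4 against Het1 to Het3 alone. Het against WT is then Het4 alone against WT1 to WT3, with the spread taken from the other embryos, and KO against WT is the sum of that difference and KO against Het1 to Het3, so every value with this covariate rests on the single embryo Het4. Xist was below 1 CPM (UMI counts scaled to a common library total) in all kept cells of WT1, WT3 and Het2 and between 1264 and 1452 CPM in the other 7 embryos, which include all 3 KO embryos; WT3 also lacked Y-linked RNA (0.196 CPM against 151 CPM in WT1 and 135 CPM in Het2), so its Xist level goes without a matching Y signal. Fezf2 Ldb2 cells numbered 341 to 610 per embryo, with a median of 20772 to 26061 UMIs per cell, and 7145932 to 16190394 UMIs summed per embryo. Of these cells, 71 had a barcode that was also kept in another library.

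The genes that chose the cells are described first, without a test. Among the 4729 cells, 81.3% had Ldb2, 73.1% Tox, 89.6% Nrip1 and 15.4% Ntf3, and 28.4% had a single UMI of Fezf2. The make-up of the selected cells differed between genotypes. Cells with a single Fezf2 UMI were most frequent in WT (35.03% to 36.7%), less so in Het (24.7% to 32.4%) and least in KO (20.5% to 25.3%, overlapping Het), and cells with none of the 6 layer VI and subplate genes made up 8.52% to 10.8% of the selected cells in KO against 17.5% to 23.8% in WT. The part of this in the expression differences below was not tested. Fezf2 was at 198, 179 and 206 CPM in the WT embryos, at 247, 222, 215 and 253 CPM in the Het embryos and at 304, 284 and 287 CPM in the KO embryos. Nrip1, a nuclear receptor corepressor, was at 264, 263 and 192 CPM in WT, 297, 341, 318 and 348 CPM in Het and 434, 473 and 469 CPM in KO. Ntf3, which encodes neurotrophin-3, went the other way, with 29.3 to 30.8 CPM in WT, 19.1 to 26.8 CPM in Het and 10.3 to 15.1 CPM in KO. Among the layer VI and subplate genes that keep a cell out, Rprm was at 146, 165 and 170 CPM in WT, 144, 214, 175 and 201 CPM in Het and 308, 263 and 264 CPM in KO, and Hs3st4, a heparan sulfate sulfotransferase gene, at 7.99, 6.27 and 6.65 CPM, 3.38, 6.01, 3.76 and 3.76 CPM and 1.98, 0.9997 and 1.18 CPM in the same order. Tle4 (20.4 to 25.1 CPM in WT, 12.7 to 18.9 CPM in KO) and Igfbp3 (11.6 to 15.1 and 7.39 to 8.41 CPM) were also lower in KO. Nxph3 and Nfe2l3 overlapped between WT and KO. The rule leaves out cells with 3 or more of these 6 genes, so their levels in the selected cells depend on each other. Over all kept cells Tle4 overlapped, at 102 to 127 CPM in WT and 103 to 131 CPM in KO. Hs3st4 and Igfbp3 were lower in KO over all kept cells too, and Rprm was higher. The LIM cofactor gene Ldb2 and the HMG-box factor gene Tox had overlapping ranges in the 3 genotypes. Ldb2 was at 141 to 150 CPM in WT against 144 to 160 CPM in KO, and Tox at 125 to 131 CPM against 110 to 137 CPM. Just inside the layer VI limit of the rule lay 1927 cells with 2 of the 6 layer VI and subplate genes (502 WT, 757 Het, 668 KO), and just outside it 1254 cells with 3 (365 WT, 502 Het, 387 KO). Those just outside held more RNA of Fezf2 (405 against 300 CPM), Ldb2 (193 against 161 CPM) and Bcl11b (764 against 532 CPM) than those just inside. Just inside the layer V limit lay 2318 cells with 2 of Ldb2, Ntf3, Tox and Nrip1, and just outside it 3497 cells with 1.

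Genes outside the rule were compared between the Fezf2 Ldb2 cells and the other cortical excitatory cells (Neurod2 and Neurod6 both detected) of the same embryo, again as a description. Excitatory neuron genes were present, with Neurod2 and Neurod6 both detected in 97.4% of the cells, which does not speak to the layer. In WT cells with at least 5000 UMIs, each thinned at random to 5000, Bcl11b was detected in 44.1% to 45.3% of the Fezf2 Ldb2 cells. It was detected in 76.9% to 82.1% of WT cells with 3 or more of the 6 layer VI and subplate genes. The layer V label comes from the selection, and these values do not settle the layer of the cells. Of the 15 genes with the highest median ratio over the 10 embryos, 4 were rule genes. The other 11 were led by 6430573F11Rik (4.38-fold), Diaph3, an actin-nucleating formin (3.44-fold), Kcnq5, a subunit of the M-type potassium channel (2.74-fold), and Gucy1a1, a subunit of soluble guanylate cyclase (2.72-fold). Its partner subunit Gucy1b1 was 2.14-fold higher and S100a10, a known layer V marker that binds annexin, 2.06-fold higher. The ratio for Gucy1a1 was between 1.17 and 1.70 on the log2 scale in each embryo.

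The first comparison asks whether the share of Fezf2 Ldb2 cells changed with Gatad2b dose. Of all kept cells they were 6.08%, 6.30% and 4.42% in the WT embryos, 7.04%, 6.31%, 6.08% and 7.70% in the Het embryos and 10.4%, 9.36% and 9.68% in the KO embryos. The KO embryos were all above the WT embryos, with a mean of 9.82% ± 0.532 (SD, n = 3) against 5.60% ± 1.03 (SD, n = 3), 1.75-fold. The Het embryos, at 6.78% ± 0.739 (SD, n = 4), overlapped WT. Wilson 95% intervals, which cover counting error only, ran from 5.76% to 6.89% in the highest WT embryo and from 8.60% to 10.2% in the lowest KO embryo.

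The same order appeared with narrower denominators. Among cortical excitatory cells the share was 10.4%, 11.99% and 8.61% in WT, 11.7%, 11.7%, 11.4% and 14.1% in Het and 17.7%, 17.3% and 18.1% in KO. Among deep-layer cells, the sum of the Fezf2 Ldb2 cells and the layer VI-side cells (3 or more of the 6 layer VI and subplate genes), it was 34.7%, 34.1% and 33.5% in WT, 36.3%, 38.8%, 32.4% and 36.5% in Het and 40.3%, 48.2% and 47.0% in KO. KO and WT did not overlap with any of the 3 denominators. Two-sided exact permutation tests over embryos gave p = 0.1 for KO minus WT in each case, the smallest p that 3 embryos against 3 allow (adjusted p = 0.2 over the 6 comparisons), so none could reach 0.05. For Het minus WT the exact permutation p was 0.171, 0.229 and 0.314. Without WT3, KO exceeded WT by 3.62, 6.50 and 10.8 percentage points, against 4.22, 7.37 and 11.1 with it.

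Within 1 prefix, KO exceeded Het1 to Het3 by 3.34 percentage points of all kept cells, by 6.14 points of excitatory cells and by 9.39 points of deep-layer cells, again with no overlap and an exact permutation p of 0.1 each. Het4, which shares the prefix of the WT embryos, was above all 3 of them with each denominator. Layer VI-side cells made up 8.76% to 12.2% of kept cells in WT and 10.0% to 15.4% in KO. Upper-layer-side cells made up 13.5% to 17.7% in WT and 9.19% to 11.7% in KO. The latter had no Fezf2, fewer than 2 of Ldb2, Ntf3, Tox and Nrip1 and fewer than 3 of the layer VI and subplate genes. They also needed 2 or more of Cux2, Unc5d, Cdh12, Hs6st2 and Inhba. The rule needs a Fezf2 UMI and counts Nrip1 among its 4 layer V genes, and both genes were at higher levels in KO, so more such neurons and more Fezf2 and Nrip1 RNA per neuron cannot be told apart from these shares. In the Fezf2 Ldb2 cells Rprm was higher in KO, and Hs3st4, Tle4 and Igfbp3 were lower. The levels of these genes likewise enter both the membership and the layer VI-side count of the deep-layer denominator. The upper-layer-side share depends on Fezf2, Nrip1 and Hs6st2, so cell number and RNA level cannot be told apart there either.

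**Figure D1:**
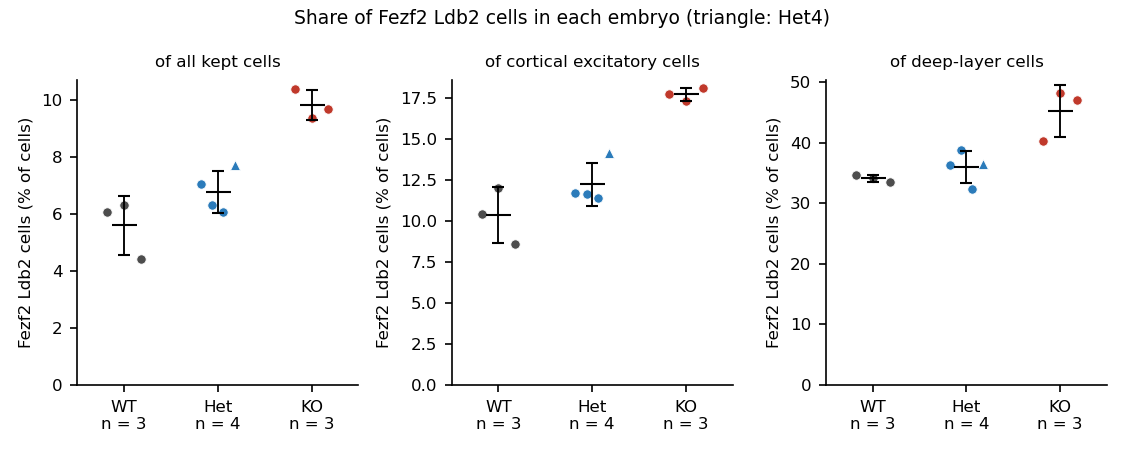
Share of Fezf2 Ldb2 cells per embryo, as a percentage of all kept cells, of cortical excitatory cells and of deep-layer cells; each point is 1 embryo, the bar and whiskers are the mean and SD of the 3 WT, 4 Het and 3 KO embryos, and the triangle is Het4. The KO embryos lie above the WT embryos in all 3 panels, for instance 9.36% to 10.4% against 4.42% to 6.30% of all kept cells.

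Bcl11b and Tbr1, whose joint detection marks cells with both a subcerebral and a corticothalamic regulator, were next followed cell by cell. To remove differences in depth, the 4670 Fezf2 Ldb2 cells with at least 5000 UMIs were each thinned to 5000. Both genes were then detected in 17.3%, 13.6% and 11.5% of the cells in WT, in 14.1%, 22.9%, 16.8% and 19.3% in Het and in 33.5%, 34.0% and 36.1% in KO. The KO mean was 34.6% ± 1.39 (SD, n = 3) against 14.1% ± 2.96 (SD, n = 3) in WT, a difference of 20.4 percentage points with no overlap. The exact permutation p was 0.1, the smallest possible here (adjusted p = 0.171 over the 2 comparisons). Without thinning the shares were 39.4% to 47.9% in WT and 77.2% to 83.2% in KO.

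Each gene alone also moved, Bcl11b from 44.1% to 45.3% of thinned cells in WT to 70.9% to 72.6% in KO and Tbr1 from 30.8% to 32.8% to 42.9% to 47.6%. The joint share rises when either gene is detected in more cells. Whether joint detection rose beyond the 2 single shares was not tested. Free RNA in the droplets gives a floor for such shares. In erythroid cells, which should lack both genes, 1.86% had both (22 of 1184 cells, median 9778 UMIs before thinning), and in interneurons, which express Bcl11b, 4.57% did (574 of 12561 cells, median 9310 UMIs). In microglia, which should also lack both, 13 of 160 cells did (8.13%). The shares in the Fezf2 Ldb2 cells (median 23903 UMIs) were above these 3 pooled shares in every embryo. Within Het3, however, both genes were detected in 17.1% of microglia (6 of 35 cells) against 16.8% of the Fezf2 Ldb2 cells. By genotype, the share was 14.6% to 19.7% in WT and 38.4% to 42.8% in KO in the upper-layer-side cells, and 41.7% to 48.7% in WT and 56.7% to 64.9% in KO in the layer VI-side cells, against 11.5% to 17.3% and 33.5% to 36.1% in the Fezf2 Ldb2 cells.

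**Figure D2:**
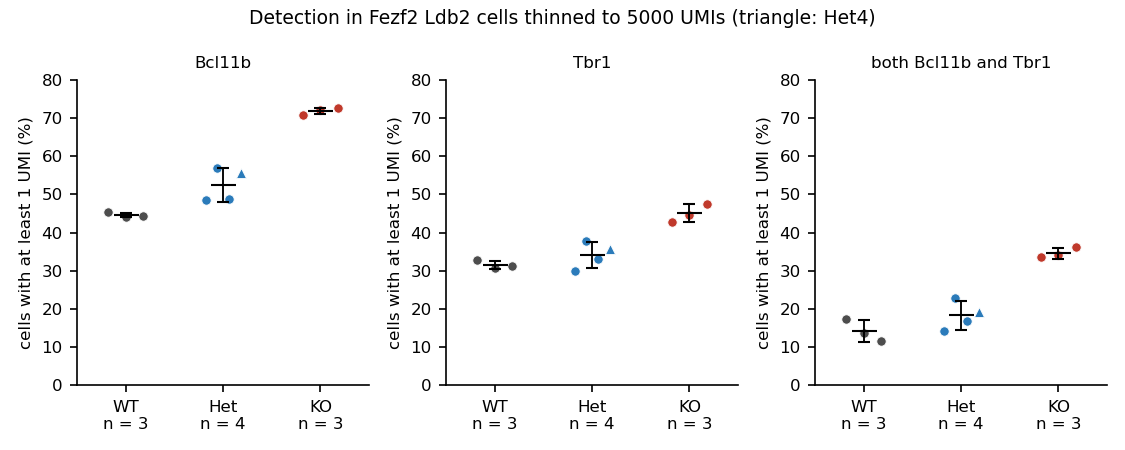
Percentage of Fezf2 Ldb2 cells with at least 1 UMI of Bcl11b, of Tbr1 and of both after thinning each cell to 5000 UMIs; points are embryos, bars and whiskers the mean and SD, and the triangle is Het4. For both genes together the KO embryos lie at 33.5% to 36.1% and the WT embryos at 11.5% to 17.3%.

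For expression, the UMIs of the Fezf2 Ldb2 cells were summed per embryo and tested with edgeR's quasi-likelihood test, and a gene was called when its Benjamini-Hochberg adjusted p was below 0.05 and its log2 fold change exceeded 0.25 in size. Levels below are CPM of the summed counts with TMM scaling, and differences are log2 fold changes ± SE from the fit. Of 13041 genes tested, 2828 were called between KO and WT (21.7%), 1350 higher in KO (10.4%) and 1478 lower (11.3%). Of 12645 genes tested between KO and Het1 to Het3, 914 were called (7.23%), 394 higher (3.12%) and 520 lower (4.11%). Between Het and WT 118 genes were called (0.905%). With the prefix as a covariate, which makes it rest on Het4, the KO against WT comparison called 898 genes (6.89%). Without WT3 and with no covariate it called 2273.

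The targeted gene followed its dose. Gatad2b (ENSMUSG00000042390, GRCm38 chr3:90293178-90363407) was at 143, 127 and 128 CPM in the WT embryos, at 102, 86.5, 85.5 and 91.2 CPM in the Het embryos and at 45.4, 50.1 and 56.7 CPM in the KO embryos. The 3 genotypes did not overlap. The log2 difference was -1.39 ± 0.09 for KO against WT (edgeR adjusted p = 1.97e-07) and -0.54 ± 0.08 for Het against WT (adjusted p = 0.00968, and 0.0999 for the same -0.54 with the prefix as a covariate). Reads of a 3′ library come from the end of the gene, downstream of the cassette, so the remaining counts do not show which transcripts were complete.

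Of 15 NuRD genes tested, 5 were higher and 2 lower in KO than in WT, Gatad2b being 1 of the lower, beside 10.4% and 11.3% of all genes. Gatad2a, the paralog of Gatad2b, was at 51.7 to 51.9 CPM in WT, 49.9 to 63.0 CPM in Het and 70.8 to 79.1 CPM in KO, and was higher in KO by 0.53 ± 0.07 (edgeR adjusted p = 0.000187) and against Het1 to Het3 by 0.44 ± 0.07 (adjusted p = 0.00211). The methyl-CpG binding subunit gene Mbd2 rose by 0.44 and the deacetylase genes Hdac1 and Hdac2 by 0.49 and 0.31, while the neuronal ATPase gene Chd5 fell by 0.34 on the log2 scale. Of these Mbd2 was also called against Het1 to Het3 and Hdac1, Hdac2 and Chd5 were not. Cdk2ap1, a small NuRD-associated subunit, was at 87.0, 82.8 and 64.8 CPM in WT, 135, 122, 135 and 79.9 CPM in Het and 144, 176 and 152 CPM in KO. Het4 lay with the WT embryos whose prefix it shares, and the gene was called between KO and WT (1.00 ± 0.16, adjusted p = 0.000583) but not between KO and Het1 to Het3 (0.26 ± 0.08, adjusted p = 0.0588).

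Layer V identity genes moved in both directions in KO. The shares of all genes called were 10.4% higher and 11.3% lower against WT, and 3.12% and 4.11% against Het1 to Het3. Of 23 tested, 7 were higher and 7 lower against WT, and 7 were higher and 8 lower of 22 against Het1 to Het3, with list medians of -0.031 and 0.0093 beside medians of -0.0025 and -0.0048 over all genes tested. Dkk3, which encodes a secreted Dickkopf-family protein, fell furthest in the list. It was at 12.4, 11.8 and 17.0 CPM in WT, 5.32, 6.22, 7.64 and 3.90 CPM in Het and 1.66, 1.33 and 1.25 CPM in KO. The 3 genotypes did not overlap, and the difference was -3.24 ± 0.25 for KO (edgeR adjusted p = 1.03e-06) and -1.26 ± 0.20 for Het against WT (adjusted p = 0.00999, also called with the prefix as a covariate).

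The other lowered layer V genes included transcriptional regulators. Etv1, an ETS factor of layer V neurons, was at 34.5, 32.9 and 31.1 CPM in WT, 23.0, 36.6, 34.0 and 31.2 CPM in Het and 15.4, 6.16 and 11.1 CPM in KO. Het and WT overlapped for Etv1 and the KO embryos lay below both, with a difference from WT of -1.56 ± 0.22 (edgeR adjusted p = 0.000178). Lmo4, a LIM-only cofactor of cortical projection neurons, was at 514, 554 and 584 CPM in WT, 370, 429.4, 494 and 271 CPM in Het and 204, 196 and 219 CPM in KO. Its difference was -1.42 ± 0.15 against WT (adjusted p = 1.86e-05) and -1.07 ± 0.09 against Het1 to Het3 (adjusted p = 3.88e-05). Diaph3, Crym, the natriuretic peptide receptor gene Npr3 and the surface glycoprotein gene Thy1 fell as well, by 1.39, 1.31, 0.94 and 0.61 on the log2 scale, and all 4 were also lower against Het1 to Het3. Pcp4, a calmodulin regulator, was at 33.5 to 52.5 CPM in WT and 39.0 to 41.9 CPM in KO (log2 difference -0.03).

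The 7 genes of the layer V list that rose were Sox5, which is known for the layer VI and subplate programmes as well, Nfib, Cdh13, Bcl11b, Id2, Kcnn2 and Bhlhe22. Bcl11b was at 325, 300 and 331 CPM in WT, 356, 415, 360 and 359 CPM in Het and 472, 472 and 542 CPM in KO. Sox5 was at 279, 216 and 256 CPM in WT, 335, 303, 286 and 412 CPM in Het and 640, 566 and 624 CPM in KO. Both genes had every KO embryo above every Het and WT embryo, with differences of 0.64 ± 0.07 for Bcl11b (edgeR adjusted p = 3.43e-05) and 1.28 ± 0.12 for Sox5 (adjusted p = 5.36e-06). Against Het1 to Het3 they were higher by 0.39 ± 0.07 (adjusted p = 0.00673) and 0.98 ± 0.07 (adjusted p = 1.38e-05). The nuclear factor I gene Nfib rose by 1.07 and also in Het (0.46, edgeR adjusted p = 0.00968, and called with the prefix as a covariate). Id2, an inhibitor of bHLH factors, and the cadherin gene Cdh13 rose by 0.63 and 0.71, and of these Id2 was not called against Het1 to Het3 (0.21).

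Of 11 layer VI and corticothalamic genes tested outside the rule, 5 were higher in KO and 1 lower, Foxp1, both against WT and against Het1 to Het3. The shares over all genes were 10.4% higher and 11.3% lower against WT, and 3.12% and 4.11% against Het1 to Het3. Nfia, a nuclear factor I gene, was at 255, 255 and 206 CPM in WT, 414, 381, 425 and 334 CPM in Het and 613, 587 and 651 CPM in KO. Its 3 genotypes did not overlap (KO against WT 1.37 ± 0.10, edgeR adjusted p = 5.18e-07; Het against WT 0.70 ± 0.09, adjusted p = 0.00609). With the prefix as a covariate Nfia was not called in Het (0.48, edgeR adjusted p = 0.101). The zinc finger gene Zfp703 went from 11.03, 14.9 and 11.8 CPM in WT through 17.7, 24.5, 21.8 and 18.1 CPM in Het to 33.7, 39.1 and 40.9 CPM in KO, a difference of 1.57 ± 0.13. The Wnt ligand gene Wnt7b, at 28.4 to 37.6 CPM in WT and 67.5 to 84.8 CPM in KO, rose by 1.24, Tbr1 by 0.65 and Ppp1r1b by 0.90. Foxp2, a corticothalamic factor gene, was at 11.3 to 16.0 CPM in WT and 9.20 to 10.2 CPM in KO and was not called (adjusted p = 0.150).

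Genes of other excitatory classes are given for the same cells, beside 10.4% higher and 11.3% lower of all genes against WT. Against Het1 to Het3 these shares were 3.12% and 4.11%. Of 16 upper-layer genes tested, 1 was higher in KO than in WT, Lhx2, and 6 were lower. Lpl, a lipase gene, fell by 1.41, the semaphorin receptor gene Plxna4 by 0.64, the heparan sulfate sulfotransferase gene Hs6st2 by 0.57 and the POU factor gene Pou3f2 by 0.35 on the log2 scale, and of these Plxna4 and Pou3f2 were also lower against Het1 to Het3. Neither Pou3f2 (-0.14, edgeR adjusted p = 0.710) nor Hs6st2 (-0.49, adjusted p = 0.270) passed when the prefix was a covariate. The KO against WT call of Pou3f2 was also lost without KO1, KO3 or WT1, with an edgeR adjusted p of up to 0.123. Of 7 subplate genes, 1 was higher in KO, Nxph4, by 0.84 against WT and 0.83 against Het1 to Het3, and 4 were lower. The 5 calls became 3 without KO2, without KO3 or without WT3. Among the lowered genes was Cdh10, which encodes a cadherin and was at 56.0, 59.4 and 53.9 CPM in WT, 36.1, 50.2, 48.5 and 40.3 CPM in Het and 18.3, 24.6 and 22.8 CPM in KO (-1.38 ± 0.12, edgeR adjusted p = 3.38e-06). The nuclear receptor gene Nr4a2 fell by 0.89 against WT and was not called against Het1 to Het3 (adjusted p = 0.164). Of 10 general excitatory neuron genes, 4 rose and none fell: Bhlhe22, Tbr1, the zinc finger factor gene Bcl11a and the homeobox gene Emx1. Bcl11a was at 581, 493 and 568 CPM in WT, 656, 571, 609 and 579 CPM in Het and 911, 938 and 937 CPM in KO, a difference of 0.76 ± 0.07.

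**Figure D3:**
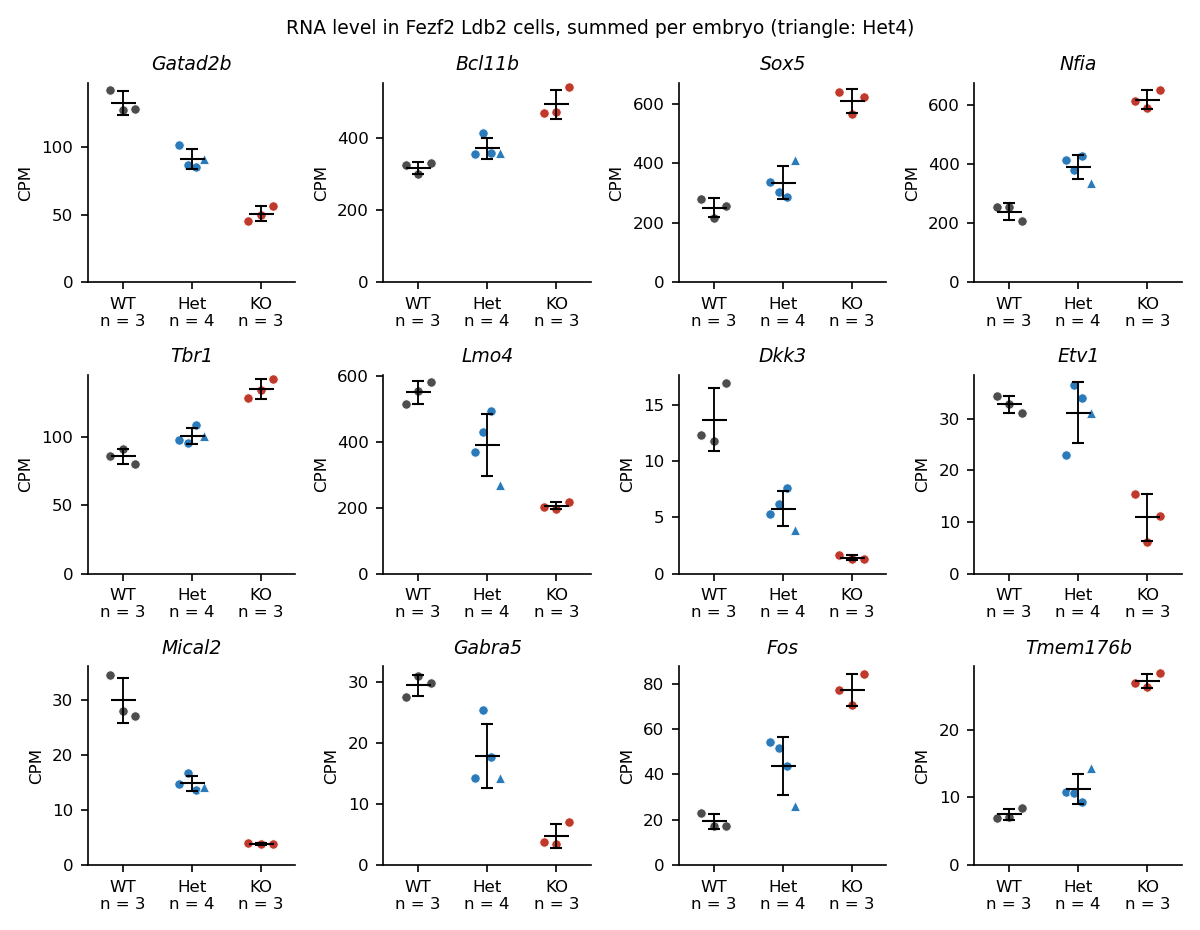
Level of 12 genes in the Fezf2 Ldb2 cells (CPM of UMIs summed per embryo, axes from 0) in the 3 WT, 4 Het and 3 KO embryos; points are embryos, bars and whiskers the mean and SD, and the triangle is Het4. Gatad2b, Mical2 and Dkk3 step down from WT through Het to KO, with Dkk3 at 11.8 to 17.0, 3.90 to 7.64 and 1.25 to 1.66 CPM, whereas Fos in Het4 (25.9 CPM) sits near the WT embryos.

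The genes with the largest differences were taken from those called with no overlap of the groups and a mean of at least 20 CPM in either group. The 10 that fell most between WT and KO were Nts, Nwd2, Mical2, Mast4, Gabra5, Dtx4, Kif26b, Gm45159, Caln1 and Pcsk2, with log2 differences from -6.49 to -1.99. Nts, the neuropeptide neurotensin (chr10:102481756-102490486), was at 31.1, 34.0 and 110 CPM in WT, 4.25, 6.01, 31.7 and 1.81 CPM in Het and 1.60, 0.0833 and 0 CPM in KO. WT3 and Het3 stood above the other embryos of their groups, and KO2 and KO3 held 1 and 0 UMIs, so the size of the difference (-6.49 ± 1.07, edgeR adjusted p = 0.00062) rests on few counts.

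Mical2, a flavin enzyme that oxidises actin filaments (chr7:112225856-112413106), was graded across the genotypes. It was at 34.7, 28.1 and 27.2 CPM in WT, 14.7, 16.8, 13.7 and 14.2 CPM in Het and 4.09, 3.75 and 3.83 CPM in KO. The difference was -2.94 ± 0.13 for KO (edgeR adjusted p = 7.93e-09) and -1.02 ± 0.10 for Het against WT (adjusted p = 0.0009), and -1.96 ± 0.13 for KO against Het1 to Het3 (adjusted p = 1.31e-05). Dtx4, a ubiquitin ligase gene of the Notch pathway, was at 44.8, 48.1 and 47.0 CPM in WT, 22.4, 27.2, 30.3 and 21.8 CPM in Het and 8.18, 11.5 and 8.15 CPM in KO. Kif26b, an atypical kinesin gene, was at 42.4, 39.7 and 35.7 CPM, 24.1, 25.7, 28.0 and 19.4 CPM and 9.13, 7.998 and 8.15 CPM in the same order. For Mical2, Dtx4 and Kif26b alike, each Het embryo, Het4 included, lay below every WT embryo and above every KO embryo. Gm45159, a long noncoding RNA gene, lies inside the annotated span of Dlg2 on the same strand, so its reads are uncertain. Same-strand overlaps were also annotated for 6430573F11Rik (with Trmt9b), Ifitm2 (Gm45717), Hist1h1e (Hist1h2be) and AC129186.1 (Gm49678).

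The 10 genes that rose most were Fos, Tmem176b, 2610001J05Rik, Ttc39b, Ifitm2, AY036118, Alcam, Zfp703, Rwdd3 and Prkcd, by 1.52 to 2.00. Tmem176b, which encodes a membrane protein, was at 6.89, 7.17 and 8.42 CPM in WT, 10.8, 10.6, 9.30 and 14.4 CPM in Het and 26.9, 26.4 and 28.4 CPM in KO (1.88 ± 0.14, edgeR adjusted p = 6.7e-07). Alcam, a cell adhesion molecule of growing axons (chr16:52248996-52454074), was at 45.8, 60.5 and 54.3 CPM in WT, 71.9, 58.6, 62.5 and 71.3 CPM in Het and 158, 146 and 189 CPM in KO (1.62 ± 0.11, adjusted p = 5.18e-07). Both were above every Het embryo in each KO embryo, and against Het1 to Het3 Tmem176b and Alcam were higher by 1.40 ± 0.09 and 1.34 ± 0.10. AY036118 differed from the rest: it was at 230, 223 and 236 CPM in WT and 202 CPM in Het4, against 668, 670 and 725 CPM in Het1 to Het3 and 727, 753 and 730 CPM in KO. Its level followed the prefix, and KO and Het1 to Het3 differed by 0.09 ± 0.05 (adjusted p = 0.325).

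Receptor genes for glutamate and GABA moved mostly down. Of 30 tested, 20 were lower and 1 higher in KO than in WT, against 11.3% and 10.4% of all genes, with a median of -0.81. The shares of all genes against Het1 to Het3 were 4.11% lower and 3.12% higher. Against Het1 to Het3, 15 were lower and 1 higher, with a median of -0.48, and with the prefix as a covariate 17 were called, all lower. Gabra5, the extrasynaptic GABA-A receptor subunit, was at 27.6, 31.0 and 29.9 CPM in WT, 14.3, 25.4, 17.7 and 14.3 CPM in Het and 3.70, 3.499 and 7.04 CPM in KO (-2.62 ± 0.24, edgeR adjusted p = 4.45e-06). Gabrg3, a GABA-A receptor subunit gene that also lies on chromosome 7, fell by 2.31 on the log2 scale.

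NMDA receptor genes were among those that fell, and 1 rose. Grin2b, the subunit that predominates before birth, was at 395, 408 and 395 CPM in WT, 287, 343, 306 and 342 CPM in Het and 227, 208 and 237 CPM in KO. Its 3 genotypes did not overlap, and it was the single receptor gene of the list called in Het (-0.83 ± 0.07 in KO, edgeR adjusted p = 2.69e-06; -0.32 in Het, adjusted p = 0.0418). With the prefix as a covariate it was not called in Het (-0.22, edgeR adjusted p = 0.545). The obligate subunit gene Grin1 fell by 0.69 and Grin2a by 1.62, whereas Grin2d was at 0.827, 1.32 and 1.49 CPM in WT, 0.488 to 1.86 CPM in Het and 2.87, 3.92 and 3.35 CPM in KO, a rise of 1.49 at a low level. The kainate receptor gene Grik2, at 37.6 to 41.8 CPM in WT and 16.54 to 17.6 CPM in KO, fell by 1.22, and the metabotropic receptor genes Grm3, Grm5, Grm7 and Grm8 by 0.75 to 1.85. Of these 4, Grm5 and Grm8 were not called against Het1 to Het3 (-0.48 and -1.54, edgeR adjusted p = 0.0812 and 0.0627). The AMPA receptor gene Gria2 overlapped between genotypes, at 1017 to 1101 CPM in WT and 927 to 1108 CPM in KO (log2 difference -0.07).

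**Figure D4:**
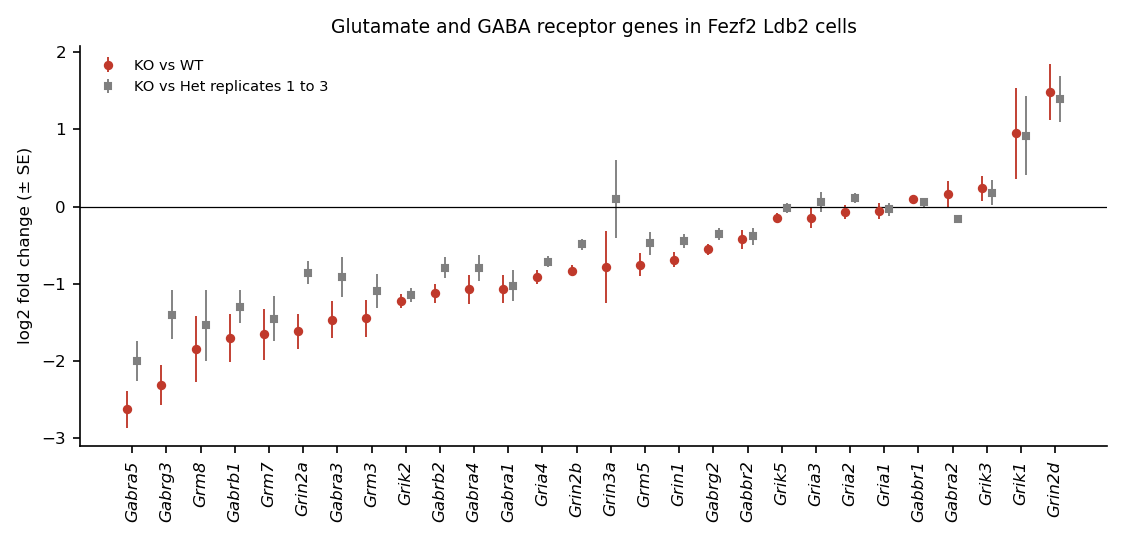
Log2 fold change ± SE of the glutamate and GABA receptor genes reported here in the Fezf2 Ldb2 cells, for KO against WT (circles) and KO against Het1 to Het3 (squares), ordered by the first; both use the same KO embryos. Values run from -2.62 for Gabra5 to 1.49 for Grin2d, and of all 30 receptor genes tested, some of them not drawn, 20 were called lower and 1 higher against WT.

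Voltage-gated channel and synaptic adhesion genes were called lower more often than higher. Beside them, 10.4% of all genes were called higher and 11.3% lower against WT, and 3.12% and 4.11% against Het1 to Het3. The higher calls against WT in both lists lay near the 10.4%. Of 31 channel genes, 14 were lower and 3 higher in KO than in WT (median -0.30), and 10 lower and 3 higher against Het1 to Het3. The calcium channel genes Cacna1e, Cacna2d3 and Cacna2d2 fell by 1.17, 1.38 and 1.77, and the A-type potassium channel gene Kcnd2 by 1.03, whereas Kcnq3 and the T-type channel gene Cacna1g rose by 0.51 and 0.71. Cacna2d2 was not called against Het1 to Het3 (-1.24, edgeR adjusted p = 0.0774) or with the prefix as a covariate, where its difference from WT was -2.01. Of 29 adhesion genes, 12 were lower and 3 higher against WT (median -0.20), and 11 lower and 2 higher against Het1 to Het3. The neurexin gene Nrxn3 fell by 1.58 and, against Het1 to Het3, by 1.11, and was not called with the prefix as a covariate (-1.51, edgeR adjusted p = 0.0642). Slitrk1, a leucine-rich repeat organiser of synapses, was at 69.6, 70.8 and 72.4 CPM in WT, 55.4, 57.4, 56.7 and 50.9 CPM in Het and 30.0, 30.4 and 31.1 CPM in KO. Its replicates hardly varied, and both genotypes were called (KO -1.22 ± 0.06, edgeR adjusted p = 2.87e-08; Het -0.37 ± 0.05, adjusted p = 0.00968). Flrt3 and the receptor phosphatase gene Ptprs rose, by 0.75 and 0.52.

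Axon guidance genes were called in both directions. Of 48 tested, 11 were higher and 12 lower in KO than in WT, and 7 higher and 10 lower of 47 against Het1 to Het3, and 5 were called in Het. The shares over all genes were 10.4% and 11.3%, 3.12% and 4.11%, and 0.905%. With the prefix as a covariate 4 were higher and 11 lower, and after thinning to 5000 UMIs 3 were higher and 8 lower of 41. Among the lowered genes, the contactin gene Cntn6 was at 4.13, 6.84 and 8.69 CPM in WT, 1.64, 2.07, 3.10 and 1.12 CPM in Het and 0.192, 0.4999 and 0.418 CPM in KO (-4.13 ± 0.44, edgeR adjusted p = 1.61e-05). The semaphorin gene Sema3e, at 0.950 to 2.14 CPM in WT and 0.192 to 0.488 CPM in KO, fell by 2.47, a call lost without KO1 (edgeR adjusted p = 0.0501). The ephrin gene Efna5 fell by 2.09, the netrin receptor gene Unc5c by 1.29, the ephrin receptor gene Epha7 by 0.94 and the semaphorin receptor gene Nrp1 by 0.88. Among the raised genes, Dcc, the attractive netrin receptor gene, was at 35.4 to 43.7 CPM in WT, 39.3 to 51.0 CPM in Het and 57.1 to 72.4 CPM in KO (0.64 ± 0.11). Sema3c was at 42.8 to 48.5 CPM in WT, 66.3 to 84.4 CPM in Het1 to Het3, 54.1 CPM in Het4 and 76.5 to 88.9 CPM in KO, and KO and Het1 to Het3 overlapped.

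Of 20 neuronal maturation genes, 5 rose and 5 fell in KO against WT, beside 10.4% and 11.3% of all genes. The neurofilament genes Nefm and Nefl, whose annotated spans overlap on opposite strands, rose by 0.90 ± 0.12 and 0.75 ± 0.15, with Nefm at 196 to 217 CPM in WT, 166 to 231 CPM in Het and 339 to 469 CPM in KO. Nefl was not called with the prefix as a covariate (0.50, edgeR adjusted p = 0.277). Sox11 and Sox4, factors of immature neurons, rose by 0.61 and 0.39, and Sox4 was not called against Het1 to Het3 (0.21). The tau gene Mapt fell by 0.64 against WT and was not called against Het1 to Het3 (-0.22 ± 0.06, edgeR adjusted p = 0.0559), and the synaptic vesicle gene Syt1 and the tubulin gene Tubb3 fell by 0.45 and 0.28. Neither Syt1 (-0.11, adjusted p = 0.328) nor Tubb3 (-0.071, adjusted p = 0.462) was called by edgeR against Het1 to Het3.

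Immediate early genes, which are transcribed within minutes of neuronal activity or of cell handling, were higher in KO than in WT for 11 of 15 tested. Their median was 0.78. The shares of all genes called higher were 10.4% against WT and 3.12% against Het1 to Het3. Fos was at 23.1, 17.2 and 17.4 CPM in WT, 54.2, 51.7, 43.6 and 25.9 CPM in Het and 77.0, 70.5 and 84.3 CPM in KO (2.00 ± 0.21, edgeR adjusted p = 1.55e-05). Fosb was at 19.3 to 21.4 CPM in WT, 37.9 to 58.3 CPM in Het1 to Het3, 19.8 CPM in Het4 and 42.8 to 46.3 CPM in KO. Het4 lay near the WT embryos for both genes, and the prefix moves with them. Against Het1 to Het3, 5 were higher (Fos, Jun, Ier2, Ier5 and Jund), with a median of 0.40, and with the prefix as a covariate 4 of the 15 were called. The part of dissociation or of the prefix in these values was not tested.

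Of 22 histone and chromatin genes tested, 4 rose and 1 fell, beside 10.4% and 11.3% of all genes, so the count of 5 called lies near the 21.7% over all genes (8 were called without Het2). H3f3b, which encodes the replacement histone H3.3, was at 2039, 2058 and 2095 CPM in WT, 2935, 2583, 2722 and 2474 CPM in Het and 3506, 3657 and 3671 CPM in KO. The genotypes did not overlap, and the difference was 0.81 ± 0.06 for KO (edgeR adjusted p = 6.14e-07) and 0.38 ± 0.05 for Het against WT (adjusted p = 0.00968, and 0.159 for 0.26 with the prefix as a covariate). The linker histone gene H1f0 rose by 0.78. Hist1h1e, another linker histone gene, was at 66.1 CPM in Het4 against 46.0 to 65.0 CPM in WT, 97.3 to 127 CPM in Het1 to Het3 and 118 to 134 CPM in KO. Cytosolic ribosomal protein genes were called for 19 of 79 against WT, 16 of them lower, and for 0 of 79 between KO and Het1 to Het3 by edgeR, where 1 had an unadjusted p below 0.05 and DESeq2 also called 0. The 19 became 0 with the prefix as a covariate, 7 without KO2, 10 without WT2 and 12 without WT3.

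**Figure D5:**
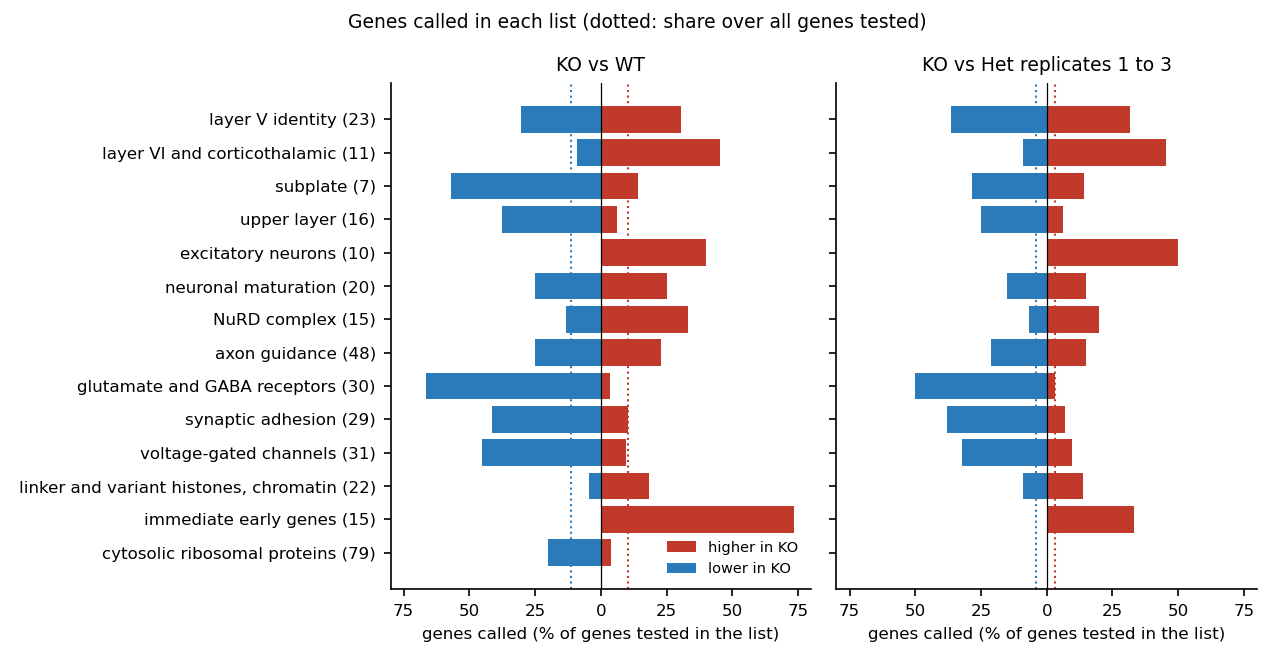
Percentage of the tested genes of each list called higher (right) or lower (left) in KO in the Fezf2 Ldb2 cells, against WT and against Het1 to Het3; the number of genes tested against WT is in parentheses, and dotted lines are the shares over all genes (10.4% and 11.3% against WT, 3.12% and 4.11% against Het1 to Het3). Receptor genes extend furthest to the left, with 20 of 30 lower against WT, and ribosomal protein genes are called only against WT.

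In Het embryos the same limits were set, no overlap with WT and a mean of at least 20 CPM in either group. Within them, the 5 genes that fell most were Mical2, Dtx4, Osbpl1a, Cntn5 and Gm45159. The 5 that rose most within them were Fos, Hist1h1e, Ifitm2, Nfia and Zfp703. Outside these limits, the called genes Dkk3 (-1.26) and Cntn6 (-1.75) fell further and Galr1 (3.46) rose further. Osbpl1a, an oxysterol-binding protein gene, was at 60.2, 73.1 and 81.3 CPM in WT, 35.7, 43.9, 47.4 and 33.9 CPM in Het and 27.0, 24.99 and 26.6 CPM in KO (-0.84 ± 0.11 in Het, edgeR adjusted p = 0.00733). Ifitm2, an interferon-induced membrane protein gene, was at 43.6, 45.1 and 58.8 CPM in WT, 94.8, 91.5, 92.3 and 66.4 CPM in Het and 172, 144 and 161 CPM in KO (0.82 ± 0.13 in Het, adjusted p = 0.00999). For the lowered genes Het4 lay among the other Het embryos or below them, and for Fos, Hist1h1e and Ifitm2 between them and WT. The number of genes called in Het rested on single embryos, with 10 called without WT2, 14 without WT3 and 636 without Het4, against 118 with all embryos. With the prefix as a covariate, which leaves Het4 as the only Het embryo set against WT, 14 of the 118 were called, 3 of the 53 raised and 11 of the 65 lowered. Mical2, Dtx4, Osbpl1a, Gm45159, Kif26b and Slitrk1 were among the 11, and Cntn5 (-0.99, edgeR adjusted p = 0.141) was not. In this comparison of 1 embryo, none of the 5 genes named as raised most was called, with Fos at 0.43 (adjusted p = 0.502), Hist1h1e at 0.26 (adjusted p = 0.720), Ifitm2 at 0.45 (adjusted p = 0.285), Nfia at 0.48 and Zfp703 at 0.51 (adjusted p = 0.464).

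The KO difference was then compared between cell populations of the same embryos, with the embryo as a block. It differed between the Fezf2 Ldb2 cells and the layer VI-side cells for 686 of 14188 genes (4.84%), 187 with a higher and 499 with a lower value in the Fezf2 Ldb2 cells. Against the upper-layer-side cells it differed for 1252 of 13613 genes (9.2%), 678 higher and 574 lower. Gabra5 fell by 2.62 in the Fezf2 Ldb2 cells and by 0.57 in the layer VI-side cells, a difference of -2.10 (edgeR adjusted p = 1.59e-05). Lmo4 fell by 1.42 against 0.52 (difference -0.90, adjusted p = 0.000989), and Cdh10 was at -1.38 against -0.03 (difference -1.37, adjusted p = 4.26e-06). Sox5 rose by 1.28 against 0.68 (difference 0.60, adjusted p = 0.000264). The lowered channel gene Cacna1e (-1.17 against 0.00) and the adhesion gene Lsamp (-1.25 against -0.04) also differed, by -1.17 (adjusted p = 8.19e-05) and -1.23 (adjusted p = 2.74e-05).

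Lmo4, Cdh10, Sox5 and Lsamp also differed from the upper-layer-side cells, by -0.75, -1.11, 0.33 and -0.46, and Gabra5 and Cacna1e did not pass the test (edgeR adjusted p = 0.0547 and 0.204). Bcl11b rose by 0.64 in the Fezf2 Ldb2 cells and by 1.33 in the upper-layer-side cells (difference -0.70, edgeR adjusted p = 0.000108), and Bcl11a rose by 0.76 against -0.20 (difference 0.95, adjusted p = 3.85e-11). Gucy1a1 (-0.80 against -2.09) and Gucy1b1 (-0.81 against -1.30) fell less in the Fezf2 Ldb2 cells than in the upper-layer-side cells. Both fell more than in the layer VI-side cells, with differences of -0.50 and -0.57 (edgeR adjusted p = 0.0499 and 0.00126). Bcl11b and Bcl11a did not pass the test against the layer VI-side cells (0.02 and -0.03, edgeR adjusted p = 0.971 and 0.795). Nfia differed by 0.00 from the upper-layer-side cells (adjusted p = 0.983) and by 0.19 from the layer VI-side cells (adjusted p = 0.104). With the prefix by population as a covariate, 205 and 424 genes differed in the 2 contrasts.

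RNA of other cell classes was present in the Fezf2 Ldb2 cells at varying levels. The summed level of 12 interneuron genes was 180 to 190 CPM in WT, 134 to 190 CPM in Het and 43.7 to 80.9 CPM in KO, of which Npy alone made up 120 to 144 CPM in WT and 20.9 to 63.0 CPM in KO; Gad1 and Gad2 were at 1.24 to 6.65 CPM in WT and 8 of the 12 were lower in KO. Erythroid genes summed to 1103 to 2088 CPM in WT, 333 to 2537 CPM in Het and 288 to 1025 CPM in KO, with 2 of 5 tested lower. Radial glia genes were at 272 to 341 CPM in WT and 268 to 367 CPM in KO, with 1 of 10 higher and 1 lower, and 8 microglia genes summed to 0.933 to 33.1 CPM in WT and 0.569 to 1.11 CPM in KO. Over all genes 10.4% were called higher and 11.3% lower against WT, and the radial glia calls lay near these shares. Higher in KO were 2 of 5 intermediate progenitor genes tested and 1 of 4 Cajal-Retzius genes, and 3 of 7 striatal genes were lower. The other lists summed, in WT against KO, to 100 to 116 and 140 to 157 CPM for 6 intermediate progenitor genes, 22.9 to 59.3 and 31.9 to 57.9 CPM for 7 Cajal-Retzius genes, 358 to 380 and 248 to 285 CPM for 8 striatal genes (Foxp1 above all), 2.099 to 7.93 and 0.325 to 0.618 CPM for 5 oligodendrocyte precursor genes, 3.08 to 43.7 and 1.39 to 39.0 CPM for 6 endothelial genes, 2.61 to 40.4 and 4.55 to 23.4 CPM for 8 mural genes and 5.18 to 38.2 and 2.44 to 2.57 CPM for 6 choroid plexus genes. None of the listed defining markers was at 0 in every embryo, and 8.67% of the Fezf2 Ldb2 cells had 2 or more genes of other classes detected. By embryo this was 9.33%, 15.1% and 9.28% in WT, 6.70% to 15.5% in Het and 6.07%, 6.64% and 4.85% in KO. The part of such RNA in the differences above was not tested.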

How the data were processed

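The authors deposited 1 filtered 10X matrix of UMI counts per embryo, raw whole-number counts without normalization, made with Cell Ranger 6.0.2 per the labels' processing notes on the mouse genome GRCm38 (mm10); the study's methods name another Cell Ranger version. All 10 matrices were used. Members and gene lists were chosen with earlier results of these data known. Cells under 1000 UMIs or over 10% mitochondrial UMIs were dropped. No doublet caller was run and possible doublets were kept. Member UMIs were summed per embryo and fitted over all 10 embryos without covariates (edgeR 4.0.16 quasi-likelihood test, filterByExpr, TMM; R 4.3.3); KO against Het1 to Het3 used those 6 embryos, and the populations were compared by an interaction with the embryo as a block. Shares were compared by two-sided exact permutation tests of means. Two-sided p-values cover the spread between embryos. The genes named were those the study discussed, the 10 KO and 5 Het genes with the largest change each way (groups apart, at least 20 CPM in 1 group, without rule, sex-linked, hemoglobin and mitochondrial genes), the 3 largest called of each list, the 15 with the highest ratio to other excitatory cells and the 5 with the largest difference from each other population; further list members given as examples were chosen after their values were seen. The lists were layer V, layer VI, subplate, upper-layer and excitatory identity, maturation, NuRD, axon guidance, receptors, adhesion, channels, histones, immediate early and ribosomal protein genes, plus markers of other classes. On simulated data for KO against WT, the pipeline recovered 86% of genes changed by a log2 of 1 and 62% by 0.5 (100 each, among 13041). It also called 15 unchanged genes, and genes of low count were not among those changed. Alternatives were DESeq2 1.42.0, its size factors, other cell filters, thinning to 5000 UMIs, covariates, a replicate block and leaving out each embryo. Positions are GENCODE vM21 on GRCm38; 30934 of 31053 gene IDs matched. Some genes counted in the lists are not reported here by name.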

Additional observations from a re-analysis of the deposited data

Results flagged for a closer look

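Among the 88 sets of values from the 4 Het embryos, 10 had 1 embryo far from the other 3, by the gap to the nearest embryo as a share of the whole range; chance gives about 1 in 20 such sets. Het4 was the embryo apart for the share of Fezf2 Ldb2 cells among excitatory cells (gap 0.880 of the range), where it was highest, and for Pcsk2 (0.961), Ifitm2 (0.883), AY036118 (0.891) and Klf4 (0.924), where it was lowest. Het1 was lowest for Gucy1a1 (0.954) and Gucy1b1 (0.862), the subunits of 1 enzyme. Het2 was highest for Bcl11b (0.926) and for Grm8 (0.898), and Het3 was highest for Nts (0.859).

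The KO difference (log2, KO against WT) differed most between the Fezf2 Ldb2 cells and the layer VI-side cells for Mkx (-3.82), Kcnj2 (-3.24), 1500015O10Rik (2.93), Trhr (-2.66) and Lrrc3b (-2.62), each by the edgeR test of the difference itself. Kcnj2, an inward rectifier potassium channel gene, was at 8.45, 10.6 and 7.47 CPM in WT and 0.830, 0.417 and 0.0697 CPM in KO in the Fezf2 Ldb2 cells, and at 1.61 to 2.39 and 0.743 to 1.04 CPM in the layer VI-side cells. Mkx and Trhr were at or below 2.80 CPM in the Fezf2 Ldb2 cells, and for 1500015O10Rik the layer VI-side level in WT came from WT1 (11.6 CPM, against 1.12 and 1.13 CPM in WT2 and WT3). Lrrc3b had 8, 21 and 6 UMIs in the Fezf2 Ldb2 cells of the WT embryos and 3, 1 and 3 in those of KO.

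Against the upper-layer-side cells the differences were largest for Nts (-6.49), Apod (4.78), Ikzf1 (-4.40), Ccbe1 (3.71) and AC129186.1 (3.36). Ccbe1 fell by 1.29 in the Fezf2 Ldb2 cells, from 25.8 to 33.6 CPM in WT to 10.7 to 13.2 CPM in KO, and had a log2 difference of -5.01 in the upper-layer-side cells, from 22.8 to 26.1 CPM to 0.676 to 0.806 CPM. Apod had 31, 2 and 0 UMIs in the Fezf2 Ldb2 cells of the KO embryos and 3, 8 and 5 in those of WT, and Ikzf1 0, 1 and 1 against 3, 6 and 12. Nts was at 1.25 to 3.24 CPM in the WT upper-layer-side cells.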

How the results depend on the processing

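The share comparisons kept their direction under every alternative. For KO minus WT, leaving out each embryo gave 3.62 to 4.56 points of all kept cells, 6.50 to 8.19 of excitatory cells, 9.57 to 13.5 of deep-layer cells and 19.1 to 22.0 for joint Bcl11b and Tbr1 detection. For Het minus WT, exact permutation p reached 0.0286, the smallest for 3 embryos against 4, for the share of deep-layer cells thinned to 5000 UMIs (1.88 points) and for Bcl11b and Tbr1 without thinning (8.16), thinned to 10000 UMIs (6.97) or with another seed (5.49); the cause was not tested. Genes called between Het and WT numbered 71 with at most 5% mitochondrial UMIs, 48 with the stricter rule, 30 after thinning, 204 with DESeq2, 402 without the low-count filter, 63 with only these groups, 29 with the prefix and 37 with Xist as a covariate, and 10 to 636 leaving out each embryo. KO against WT gave 850 after thinning, when fewer genes were tested, 898 with the prefix and 2109 to 2980 leaving out each embryo. With Xist as a covariate KO against WT gave 1959. KO against Het1 to Het3 gave 270 after thinning, 695 with Xist as a covariate and 604 to 1012 leaving out each embryo. The contrast with layer VI-side cells gave 1160 without the filter, 205 with the prefix and 416 to 730 leaving out each embryo, and that with upper-layer-side cells 424 with the prefix and 914 to 1318 leaving out each embryo. Of 9 same-numbered pairs of embryos 1 (WT3 and Het3) correlated above 0.1, so the numbers were not taken as pairing. The replicate block gave 582 genes for Het against WT (636 in the same embryos without it), 2924 for KO against WT and 897 for KO against Het1 to Het3, and no called named gene lost its call. Directions reversed for Bcl11b in Het after thinning (-0.076), AY036118 in KO with the prefix (-0.088), 1500015O10Rik in KO with Xist (-0.010), with the prefix (-0.79), without KO2 or without WT3 (-0.038; -0.12 to 0.40 over embryos), Apod against upper-layer-side cells without the 5% of cells with most UMIs (-0.88) and AC129186.1 in KO (-0.064 to 0.36). Of 65 named genes called between KO and WT, 14 lost the call with the prefix, a fit that rests on Het4, and 1 reversed. List counts under the prefix, Xist, thinning and without WT3, chosen after seeing the data, moved receptors from 21 to 17, 19, 12 (of 24) and 20, and immediate early genes from 11 to 4, 9, 8 (of 9) and 9. The prefix also moved maturation genes from 10 to 5, channels from 17 to 10, upper-layer genes from 7 to 4, subplate and histone genes from 5 to 3 each and excitatory genes from 4 to 7. Beside these list counts, the KO against WT calls over all genes went from 2828 of 13041 to 898 with the prefix, which rests on Het4. They went to 1959 with Xist, 850 of 8891 after thinning and 2273 of 13381 without WT3. At these depths, genes under about 1 CPM rest on few counts.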

Other observations

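Some called genes lay outside the functional lists but in the marker lists of other classes. Npy, which encodes neuropeptide Y and was the interneuron-list gene of highest level, was at 139, 144 and 120 CPM in the WT embryos, 117, 124, 130 and 159 CPM in Het and 26.8, 20.9 and 63.0 CPM in KO (-1.86, edgeR adjusted p = 0.000248), with Het4 highest. Gadd45g, a stress-inducible growth arrest gene, was at 14.3 to 19.9 CPM in WT, 20.6 to 42.3 CPM in Het and 43.2 to 51.0 CPM in KO (1.49), and was not called against Het1 to Het3 (0.61, edgeR adjusted p = 0.0664). Nhlh2, a bHLH factor gene, was at 8.25 to 8.96 CPM in WT and 17.6 to 22.7 CPM in KO (1.20) and was also higher than in Het1 to Het3 (0.70). The intermediate filament gene Vim rose by 0.92, from 65.2 to 78.4 CPM in WT to 119 to 154 CPM in KO, and the glutamate transporter gene Slc1a3 fell by 0.75 and was not called against Het1 to Het3 (-0.33, edgeR adjusted p = 0.112). These genes were chosen after their values were seen.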
